A study of Saccharomyces cerevisiae with 6 samples.

Results

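The rapamycin response of budding yeast cells lacking both Ptc1 and Ptc6 was set against that of cells lacking Ptc6 alone, gene by gene, to see what loss of Ptc1 adds to loss of Ptc6. For each open reading frame (ORF), the difference was the mean log2 ratio of rapamycin over mock on the 2 ptc1 ptc6 arrays minus the mean on the 2 ptc6 arrays, so that a negative difference means a lower ratio in the double mutant. It was taken for the 3078 ORFs with a value on all 4 arrays, of 5196 ORFs outside names starting YL or YM and 6212 in the whole table. Of the 2118 that could not be compared, 532 had values on both ptc1 ptc6 arrays only, 187 on both ptc6 arrays only and 1399 on neither pair. All strains shared the MATa haploid background BY4741, grown at 28 °C in rich YPD medium. The ptc1 ptc6 and ptc6 mutants carry gene replacements by drug resistance cassettes, and unmodified BY4741 was the wild type. Each culture was divided at an optical density of 0.5, with 200 ng/ml rapamycin added to one aliquot for 1 h and mock treatment given to the other. RNA of the 2 aliquots was hybridised together on 2 arrays with the dyes swapped, which makes each strain 1 biological replicate. No test between strains was therefore possible, and neither a ptc1 single mutant nor a comparison of untreated strains was analysed here. A ratio can differ between the strains through the rapamycin-treated or through the mock-treated level, which these values cannot separate.

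Rapamycin binds the prolyl isomerase Fpr1 and blocks TORC1, the kinase complex that couples growth to nutrients. In yeast this shuts down the genes for ribosomal proteins and ribosome assembly, and it releases the genes under nitrogen catabolite repression (NCR), which encode permeases and enzymes for poor nitrogen sources and are activated by Gln3 and Gat1. Ptc1 and Ptc6 are type 2C protein phosphatases. Ptc1 is best known for dephosphorylating the osmotic stress kinase Hog1 and for its influence on cell wall signalling, and Ptc6 is found in mitochondria.

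The deleted genes were checked first. PTC1 had no value on any ptc1 ptc6 or ptc6 array and −0.28 on 1 wild type array, so it could not tell the mutants apart. PTC6 had no value on the ptc1 ptc6 and ptc6 arrays, and ratios of 1.11 and 0.62 in wild type cells. The related phosphatase genes PTC2, PTC3, PTC4, PTC5 and PTC7 had differences between −0.21 and 0.25, and the arrays of both mutants overlapped for each. Of the a-cell genes, MFA2, STE2, BAR1 and STE6 gave values on all 6 arrays, whereas MFA1 gave none. The alpha-cell gene STE3 gave none either, so a missing value alone does not tell the mating types apart. LEU2, which BY4741 lacks, gave no value, whereas URA3 and HIS3, deleted whole or in part in BY4741, gave ratios on all 6 arrays.

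A pair of properties of the table touch every value below. On chromosomes XII and XIII the ptc1 ptc6 ratios did not track those of ptc6 (correlation across ORFs 0.00862 and 0.533, against 0.962 to 0.978 on every other chromosome), while wild type and ptc6 did (0.969 and 0.973). These are the ORFs with names starting YL or YM, and they were left out. The dyes also left a mark. The 2 ptc1 ptc6 arrays correlated at 0.932 and the 2 ptc6 arrays at 0.950 across the 3078 ORFs, whereas ptc1 ptc6 and ptc6 arrays with the rapamycin RNA in the same dye correlated at 0.953 (Cy5) and 0.958 (Cy3). The 2 same-dye differences between the strains correlated at 0.426 with each other. These correlations are across genes, which are not independent replicates. The mean of both orientations was used throughout. ORFs counted as past the 2-fold limit below were also required to have no overlap between the arrays of the strains. Their same-dye differences therefore have the sign of the mean by rule, which gives no check on the dyes.

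Ratios of repressed genes were lower in ptc1 ptc6 than in ptc6, while the medians of induced genes were nearly level in the 2 mutants. Among the 495 ORFs repressed at least 2-fold in wild type cells, the median ratio was −1.80 in ptc1 ptc6, −1.5 in ptc6 and −2.05 in wild type cells, so the double mutant lay nearer to wild type than ptc6 did. Among the 396 ORFs induced at least 2-fold in wild type cells, the medians were 1.36 in ptc1 ptc6, 1.34 in ptc6 and 1.54 in wild type cells. Large differences were few. Of the 3078 ORFs, 31 (1.01%) were lower in ptc1 ptc6 by 2-fold or more with no overlap between the arrays of the strains, and 10 (0.325%) were higher by the same rule. The 31 lower ORFs comprised 10 induced and 17 repressed in wild type cells, 1 within 2-fold and 3 without a value on both wild type arrays. The 10 higher ones comprised 2 induced, 2 repressed and 6 within 2-fold.

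**Figure D1:**
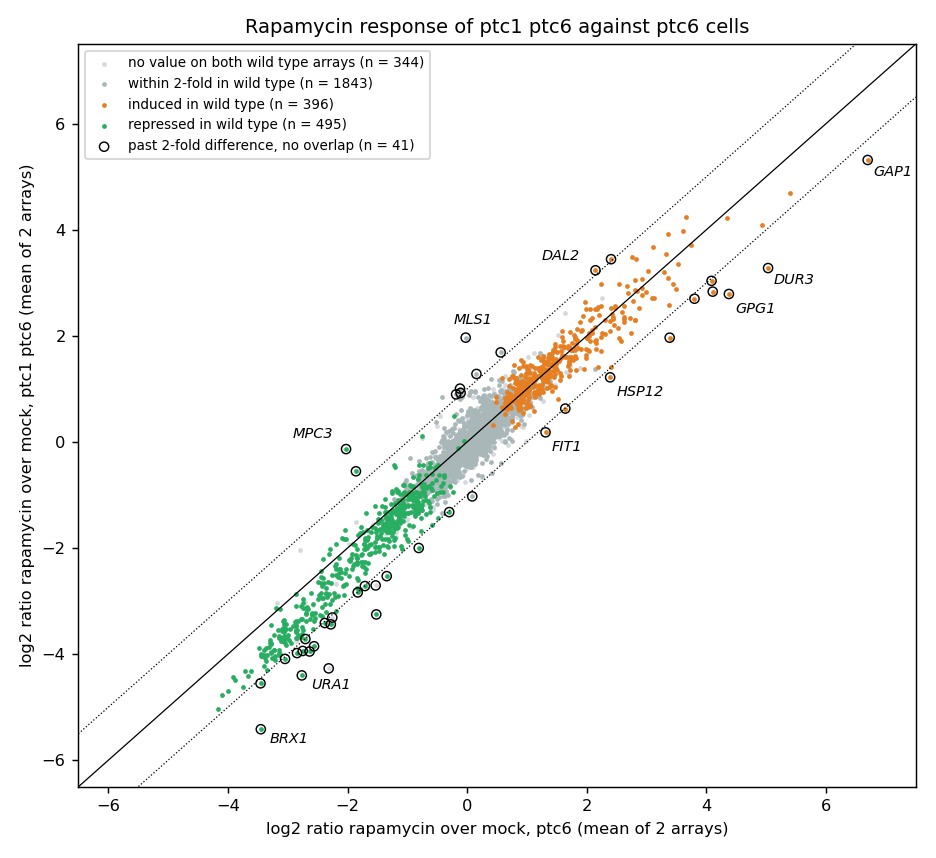
Mean log2 ratio of rapamycin over mock in ptc1 ptc6 cells (y axis) against ptc6 cells (x axis), 1 point per ORF, coloured by the wild type response. The solid line marks equal ratios and the dotted lines a 2-fold difference. The green points of ORFs repressed in wild type cells lie mostly below the solid line (median difference −0.34), and 41 circled ORFs differed by 2-fold or more with no overlap.

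Wild type arrays alone chose the induced and repressed ORFs, so the choice shares no array with the difference. In the repressed class the median difference was −0.34, with quartiles of −0.58 and −0.15 and values of −0.43 to −0.24 over the 4 pairings of a ptc1 ptc6 array with a ptc6 array. Both ptc1 ptc6 arrays lay below both ptc6 arrays for 270 of the 495 ORFs (54.5%) and above them for 20 (4.04%). Over all 3078 ORFs the corresponding shares were 25.7% below and 11.5% above, and the median difference was −0.09. The array medians were 0.004 and 0.034 in ptc1 ptc6, and 0.04 and 0.13 in ptc6. With each array centred on its median, the median difference over all ORFs was −0.0235. The shares given here were computed without centring. In the induced class the median difference was 0.02 (−0.07 to 0.06 over the 4 pairings), with 76 ORFs below (19.2%), 70 above (17.7%) and 250 overlapping. The shares of the induced class thus lay closer to those of all ORFs than the shares of the repressed class did. At least 2-fold repression was reached by 428 of the 495 repressed ORFs in ptc1 ptc6 and by 381 in ptc6, while 298 and 292 of the 396 induced ORFs were induced 2-fold in ptc1 ptc6 and ptc6.

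The size of the difference followed the depth of repression in wild type cells. The 47 ORFs below −4 in wild type cells had medians of −3.93 in ptc1 ptc6, −3.23 in ptc6 and −4.27 in wild type, with a median difference of −0.68, and 39 of them lay below ptc6 without overlap and 0 above. The 103 ORFs between −4 and −3 had a median difference of −0.61 (83 below, 0 above), the 109 between −3 and −2 one of −0.35 (62 below, 3 above), and the 236 between −2 and −1 one of −0.19 (86 below, 17 above). On the induced side the medians were smaller in size, at 0.04 for 267 ORFs between 1 and 2, −0.07 for 81 between 2 and 3, −0.06 for 30 between 3 and 4, and −0.28 for the 18 above 4, the lowest of these groups. Of these 18 most strongly induced ORFs, 8 lay below ptc6 and 5 above, and 4 of the 8 were lower by 2-fold or more. As a description, the regression slope of the ptc1 ptc6 on the ptc6 ratios was 1.17 over the repressed ORFs (1.04 to 1.20 over the 4 pairings). Over the induced ones it was 0.83 (0.748 to 0.828 over the pairings), and a line through the origin gave 0.951. Between the 2 arrays of 1 strain, fitted either way, slopes over induced ORFs were 0.872 and 0.991 in ptc6, and 0.918 and 0.847 in ptc1 ptc6. Over repressed ORFs they were 0.895 and 0.995 in ptc6, and 0.949 and 0.838 in ptc1 ptc6. Slopes below 1 thus also arose between arrays of the same RNA. Against wild type, the slopes over the induced ORFs were 0.734 for ptc1 ptc6 and 0.835 for ptc6, and over the repressed ORFs 0.942 for ptc1 ptc6 and 0.758 for ptc6, so that by this measure the response of ptc1 ptc6 was further from wild type than that of ptc6 for induced genes and nearer to it for repressed ones.

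**Figure D2:**
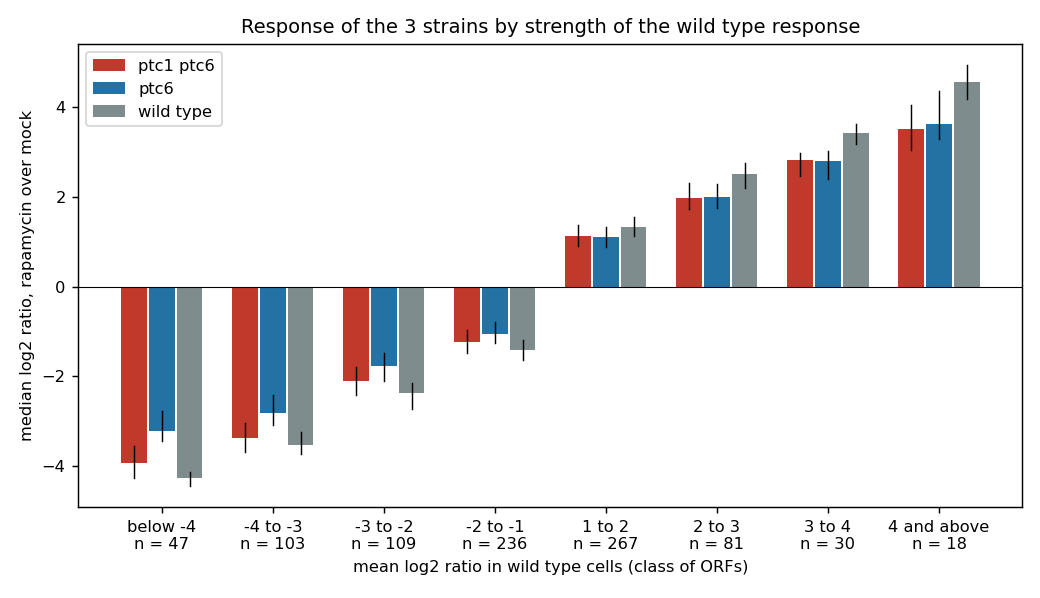
Median log2 ratio of rapamycin over mock (y axis) in ptc1 ptc6, ptc6 and wild type cells for ORFs grouped by their wild type ratio (x axis), with the number of ORFs under each group. Bars are medians and lines span the quartiles over ORFs. In the 4 repressed groups the ptc1 ptc6 bar lies between ptc6 and wild type, while in the groups induced between 1 and 4 ptc1 ptc6 and ptc6 are nearly level and both below wild type.

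Repressed genes with the weakest response in ptc6 were frequent. For 246 of the 495 repressed ORFs (49.7%), the ratio was higher in ptc6 than in both other strains with no overlap, that is, repression was weaker in ptc6 than in wild type and was deeper again in ptc1 ptc6. The same order was found for 399 of the 2734 ORFs with wild type values (14.6%) and for 143 of the 1843 within 2-fold in wild type cells (7.76%). Both of its comparisons use the same 2 ptc6 arrays, so a deviation of the single ptc6 culture cannot be told apart from a return of repression in ptc1 ptc6. The repressed class was also chosen for low ratios on the wild type arrays, which favours orders with a mutant above wild type. In 131 of the 246 the ptc1 ptc6 arrays overlapped those of wild type, in 98 they stayed above wild type, and in 17 they fell below it. The reverse, with ptc6 below both other strains, was found for 2 repressed ORFs (0.404%), against 116 of the 2734 (4.24%). In 9 repressed ORFs (1.82%) ptc1 ptc6 lay above ptc6 and ptc6 above wild type, a share near that of the 2734 (40 ORFs, 1.46%). Repression was weaker than in wild type without overlap for 217 repressed ORFs in ptc1 ptc6, against 385 in ptc6.

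Genes for cytosolic ribosomal proteins had the lowest median difference of the 32 lists. The list held 101 measured genes, of which RPP1 encodes a subunit of RNase P and is no ribosomal protein gene, and its arrays overlapped. Of the 101, 83 had both ptc1 ptc6 arrays below both ptc6 arrays and 0 had them above, against 25.7% and 11.5% of all ORFs, and the median difference was −0.59. The group is also among the most repressed in wild type. Between −4 and −3 in wild type cells, 62 ribosomal protein genes had a median difference of −0.57 and 41 other ORFs one of −0.63. Below −4 these medians were −0.68 (21 genes) and −0.66 (26 other ORFs), but between −3 and −2 they were −0.49 (15 genes) and −0.33 (94 other ORFs). Between −4 and −3 the ptc1 ptc6 median of the ribosomal protein genes was −3.61, with −3.61 in wild type. For the other ORFs there it was −2.89, with −3.49 in wild type. Over the 99 repressed in wild type, the medians were −3.68 in ptc1 ptc6, −3.06 in ptc6 and −3.64 in wild type cells. Counting only genes without overlap between arrays, 82 of these 99 were less repressed in ptc6 than in wild type and 8 in ptc1 ptc6. The same counts over all 495 repressed ORFs were 385 and 217. RPL30, whose product is a protein of the large subunit, had ratios of −3.81 and −3.77 in ptc1 ptc6, −3.14 and −2.94 in ptc6, and −3.76 and −3.66 in wild type cells, a difference of −0.75 between the mutants. RPL16A had −4.09 and −3.77 in ptc1 ptc6, −3.08 and −3.38 in ptc6, and −4.33 and −4.25 in wild type cells. In both genes the ptc1 ptc6 and ptc6 arrays stood clear of each other. RPL19B, RPL5, RPL21A and RPS27B passed the 2-fold limit. RPL19B had −3.92 and −3.96 in ptc1 ptc6, −2.65 and −2.85 in ptc6, and −4.01 and −3.75 in wild type cells, and its difference of −1.19 was the largest in size of the group. RPL5, a gene without a duplicate whose product binds the 5S RNA, had −4.47 and −4.63 in ptc1 ptc6, −3.64 and −3.27 in ptc6, and −4.33 and −4.26 in wild type cells. Most yeast ribosomal protein genes exist as near-identical pairs, and whether the probes tell the copies apart is not given in the sources used here.

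Genes for ribosome assembly and rRNA processing were lower in ptc1 ptc6 as well, but a smaller share of them overlapped the wild type level. Of 104 measured, 51 lay below ptc6 without overlap (49.0%) and 6 above (5.77%), against 25.7% and 11.5% of all ORFs. The median difference was −0.32, and 9 passed the 2-fold limit as lower. Over the 80 repressed in wild type the medians were −2.12 in ptc1 ptc6, −1.83 in ptc6 and −2.81 in wild type cells. For 42 of the 80 (52.5%), ptc6 lay above both other strains, a share near the 49.7% of all repressed ORFs. In 32 of these 42 ptc1 ptc6 still lay above wild type, against 98 of the 246 such ORFs among all repressed ones and 5 of 76 among ribosomal proteins. The median difference between ptc1 ptc6 and wild type was 0.48 for these 80 genes and −0.04 for the 99 ribosomal protein genes; the corresponding values for ptc6 minus wild type were 0.89 and 0.58.

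Several assembly factors of the large ribosomal subunit were among the ORFs with the lowest differences. BRX1 had ratios of −6.01 and −4.82 in ptc1 ptc6, −3.57 and −3.33 in ptc6, and −5.26 and −5.49 in wild type cells, a 3.91-fold lower ratio than in ptc6. NIP7 had −4.48 and −3.23 in ptc1 ptc6, −2.45 and −2.67 in ptc6, and −4.07 and −4.24 in wild type cells. In both genes the ptc1 ptc6 arrays spread over more than 1 log2 unit and reached the wild type range. NMD3, the export adaptor of the large subunit, had −3.47 and −3.40 in ptc1 ptc6, −2.35 and −2.21 in ptc6, and −4.44 and −3.98 in wild type cells, so its repression returned in part. MAK5, a helicase of large subunit assembly, had −5.26 and −3.28 in ptc1 ptc6 and −2.41 and −2.22 in ptc6, with 1 wild type value of −3.12. POL5, needed for rRNA synthesis, had the widest spread, at −4.64 and −1.86 in ptc1 ptc6, −1.28 and −1.76 in ptc6, and −2.42 and −2.36 in wild type cells; without ptc1 ptc6 array 1 its difference was −0.34. NSR1, UTP20, NUG1, URB1 and IPI3, which also act in rRNA processing or subunit assembly, were lower by 2-fold or more without overlap. RPF2, an assembly factor of the large subunit, had −3.84 and −3.39 in ptc1 ptc6, −2.46 and −3.07 in ptc6, and −5.07 and −5.69 in wild type cells, so that both mutants stayed far above wild type. A few members went the other way: NOP12 had 1.05 and 0.85 in ptc1 ptc6 against 0.23 and 0.03 in ptc6, and NOP4 had −1.94 and −2.13 in ptc1 ptc6 against −2.53 and −3.07 in ptc6, both named after their values were seen.

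Lists of polymerase, nucleotide synthesis and translation genes had lower medians than all ORFs. Without overlap, 25.7% of all ORFs lay below ptc6 and 11.5% above. Of 21 genes for RNA polymerases I and III and for their transcription factors or regulators (MAF1, RRN3, TFC1, TFC7 and UAF30), 12 lay below ptc6 without overlap and 1, TFC1, above (median difference −0.38). RPA34, a polymerase I subunit, had −3.93 and −3.97 in ptc1 ptc6, −2.55 and −2.72 in ptc6, and −4.06 and −4.63 in wild type cells. RPA135, the second largest subunit of that enzyme, had a difference of −0.85. For nucleotide synthesis, 11 of 18 genes lay below and 0 above (median −0.29). The dihydroorotate dehydrogenase gene URA1 had −4.18 and −4.62 in ptc1 ptc6, −2.95 and −2.58 in ptc6, and −4.67 and −5.33 in wild type cells, a difference of −1.64. RNR1, the large subunit of ribonucleotide reductase, had −1.84 and −2.15 in ptc1 ptc6, −0.88 and −0.74 in ptc6, and −1.76 and −1.40 in wild type cells. For both genes the double mutant was within or near the wild type range and ptc6 stood apart. Of 43 translation factors, 18 lay below and 2 above (median −0.23), and of 20 tRNA synthetases 6 lay below and 0 above, a share not far from the 25.7% of all ORFs (median −0.17, but 0.07 where only the arrays with rapamycin RNA in Cy3 were used). DPH2, which acts in diphthamide synthesis on elongation factor 2, had −2.71 and −2.35 in ptc1 ptc6, −1.38 and −1.31 in ptc6, and −2.65 and −2.84 in wild type cells. The highest difference among the translation factors was that of TEF1, one of the near-identical pair of elongation factor 1 alpha genes, at −0.46 and −0.40 in ptc1 ptc6 against −1.27 and −1.18 in ptc6.

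Histone genes were lower in ptc1 ptc6 although most responded little to the drug. All 10 had a negative difference, as did 63.8% of all ORFs. Without overlap, 9 lay below ptc6 (90%), against 25.7% of all ORFs, and the median was −0.45. The group medians were −0.43 in ptc1 ptc6, −0.04 in ptc6 and −0.13 in wild type cells, so here ptc1 ptc6 lay below both. HTA2 had −0.90 and −1.05 in ptc1 ptc6, −0.55 and −0.16 in ptc6, and −0.67 and −0.45 in wild type cells. HHO1, the linker histone gene, had −0.23 and −0.29 in ptc1 ptc6, 0.35 and 0.30 in ptc6, and 0.26 and −0.21 in wild type cells. The core histone genes are near-identical pairs, which the spots may not separate. Among 12 cyclins and G1 regulators, 4 lay below (33.3%) and 0 above, a share not far from the 25.7% of all ORFs. CLB1, PCL1 and CLN2 were among the 4. The list median was −0.16, with a range of −0.33 to −0.0028 when 1 array was left out.

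**Figure D3:**
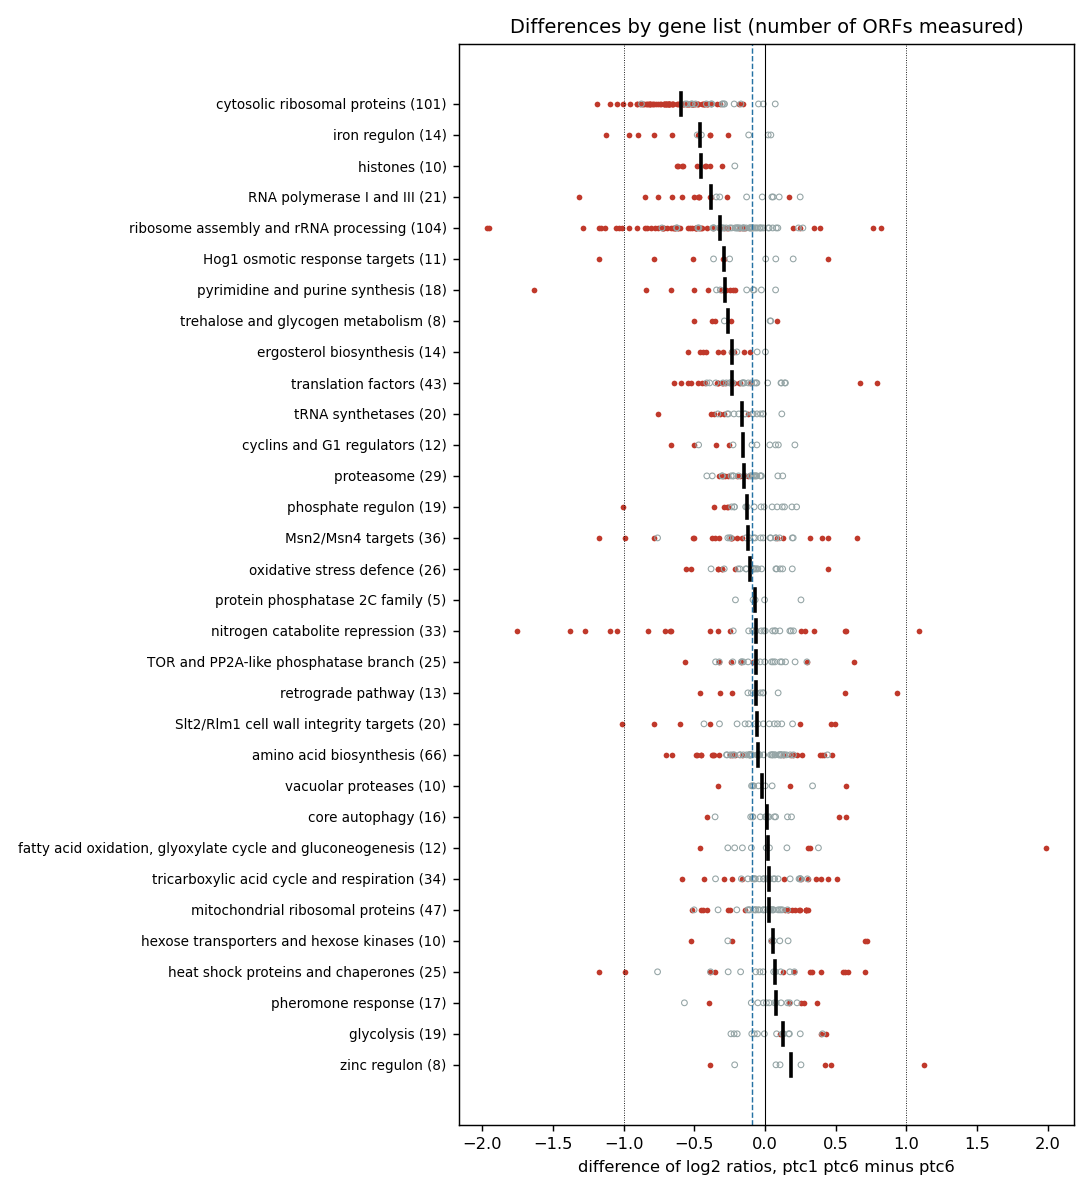
Difference of log2 ratios, ptc1 ptc6 minus ptc6 (x axis), for the members of each gene list (rows, number measured in brackets). Filled points are ORFs whose arrays did not overlap between the strains, open points those that overlapped, black bars list medians, the dashed line the median of all ORFs (−0.09) and the dotted lines a 2-fold difference. Ribosomal proteins lie almost wholly left of 0 (median −0.59), while the NCR genes spread to both sides (median −0.06).

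A limited set of induced genes had lower ratios in ptc1 ptc6 than in ptc6, and in ptc6 than in wild type cells. Of the 396 induced ORFs, 38 (9.60%) had ptc1 ptc6 below ptc6 and ptc6 below wild type with no overlap between any strains. That order held for 84 of the 2734 ORFs with wild type values (3.07%). Another 26 induced ORFs (6.57%) had ptc1 ptc6 below wild type and above ptc6, against 31 of the 2734 (1.13%). In 5 (1.26%) ptc6 lay above wild type and ptc1 ptc6 below, against 48 of the 2734 (1.76%). In all, ptc1 ptc6 was below both other strains for 66 induced ORFs (16.7%) and ptc6 was below both others for 52 (13.1%). Over the 2734 ORFs with wild type values these shares were 10.1% (277 ORFs) and 4.24% (116 ORFs). The induced class was chosen for high ratios on the wild type arrays, which favours orders with wild type as the highest strain. The 38 stepping genes held the general amino acid permease GAP1, the ammonium permease MEP2, the small heat shock proteins HSP12 and HSP26, FIT1 and the peroxisomal citrate synthase CIT2.

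Some permease genes for nitrogen sources were among the induced ORFs with the lowest differences, while MEP1 (−0.12), MEP3 (−0.06), DAL4 (−0.03), CAN1 (−0.01) and UGA4 (0.18) overlapped between the strains, the last 4 named after their values were seen. GAP1 had ratios of 5.34 and 5.29 in ptc1 ptc6, 6.48 and 6.91 in ptc6, and 7.21 and 7.0 in wild type cells, which is 39.8-fold induction in ptc1 ptc6, 104-fold in ptc6 and 138-fold in wild type. AGP1, a broad amino acid permease, had 2.71 and 2.95 in ptc1 ptc6, 4.02 and 4.19 in ptc6, and 3.86 and 4.01 in wild type cells. DIP5, the permease for acidic amino acids, had 2.74 and 2.65 in ptc1 ptc6, 3.90 and 3.70 in ptc6, and 2.94 and 3.03 in wild type cells. These 3 genes differed in where ptc6 stood, below wild type for GAP1 and above it for AGP1 and DIP5, and in each ptc1 ptc6 was the lowest strain. The urea genes were lower as well. DUR3, the urea transporter, had 3.25 and 3.31 in ptc1 ptc6, 6.03 and 4.03 in ptc6, and 4.10 and 4.42 in wild type cells; its difference of −1.75 was −0.75 without ptc6 array 1. DUR12 (DUR1,2), the urea amidolyase, had 2.91 and 3.17 in ptc1 ptc6, 4.41 and 3.76 in ptc6, and 4.29 and 3.74 in wild type cells.

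The NCR genes did not move as a block. Of 33 measured, 12 lay below ptc6 without overlap (36.4%) and 6 above (18.2%), against 25.7% and 11.5% of all ORFs. The median difference was −0.06 (0.00 with each array centred on its median), and the quartiles were −0.67 and 0.18. Below ptc6, besides the 5 genes above, were DAL3 (difference −0.83), MEP2 (−0.71) and UGA1 (−0.67), named after their values were seen. On the other side DAL2, the allantoicase gene of the same degradation pathway as DAL3 and DUR12, had 3.42 and 3.05 in ptc1 ptc6, 2.10 and 2.19 in ptc6, and 2.93 and 2.64 in wild type cells, a difference of 1.09. CPS1, a vacuolar carboxypeptidase, had 4.17 and 4.29 in ptc1 ptc6 against 3.50 and 3.81 in ptc6. Of the nitrogen genes the study assayed singly, GLN1, glutamine synthetase, differed by −0.25 without overlap, and MEP1 (−0.12) and GDH1 (0.18) overlapped. Of 66 amino acid biosynthesis genes 14 lay below and 9 above (median −0.05, and 0.01 with each array centred). Within that list the 9 genes repressed in wild type had a median difference of −0.36, and the 26 induced ones a median of 0.09.

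**Figure D4:**
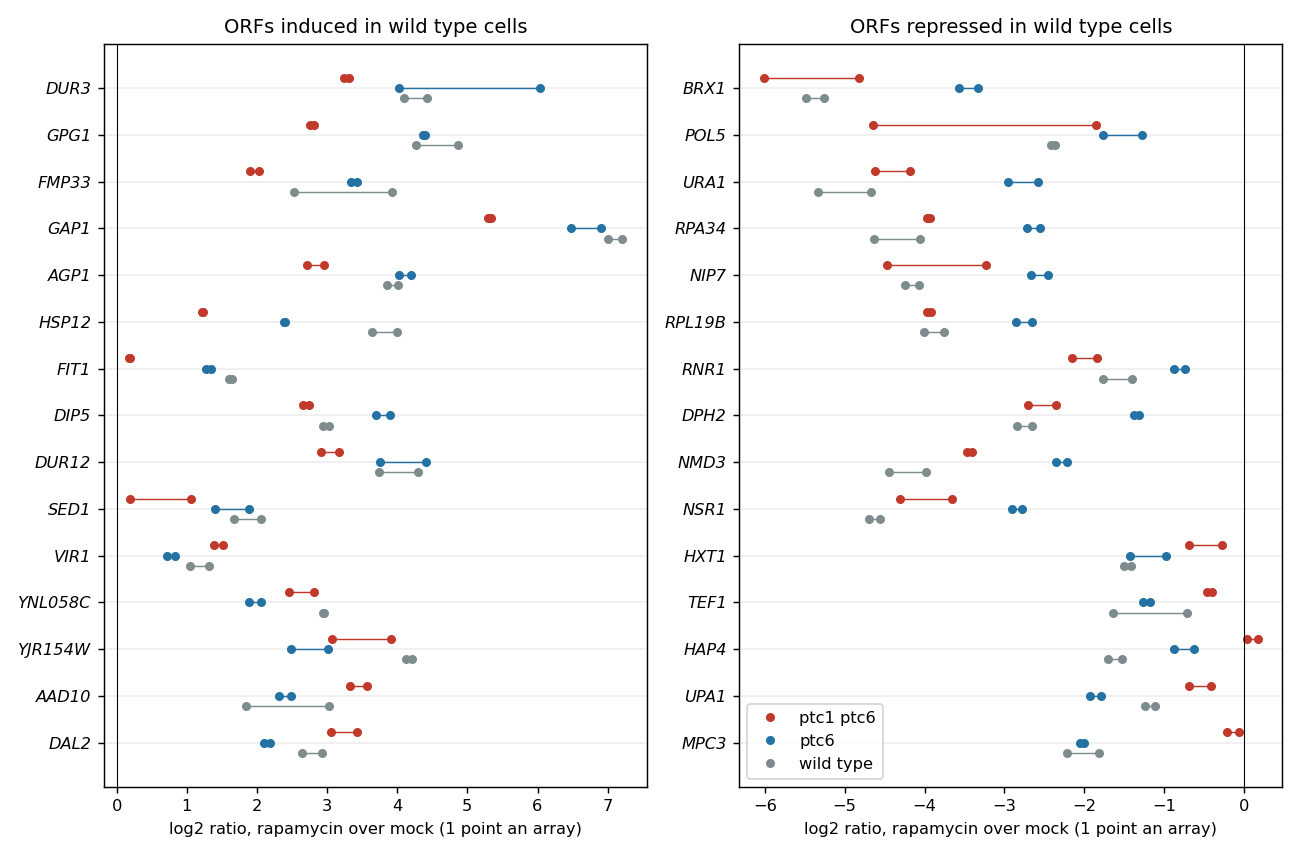
Log2 ratio of rapamycin over mock on each array (x axis, 1 point an array, a line joining the 2 arrays of a strain) for induced (left) and repressed (right) ORFs with the lowest and highest differences. GAP1, GPG1 and HSP12 show ptc1 ptc6 points clear of and below ptc6, and RPA34, URA1 and RPL19B show ptc1 ptc6 points near wild type with ptc6 apart; DUR3 and POL5 rest on arrays that lie far apart.

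The small heat shock protein genes HSP12 and HSP26 had lower ratios in ptc1 ptc6, whereas HSP42 of the same kind, within 2-fold in wild type cells and named after its values were seen, lay above ptc6 (difference 0.13). HSP12 had 1.21 and 1.23 in ptc1 ptc6, 2.38 and 2.40 in ptc6, and 3.99 and 3.64 in wild type cells, a 2.25-fold lower ratio in ptc1 ptc6 than in ptc6. HSP26 had 1.43 and 1.40 in ptc1 ptc6, 2.26 and 2.55 in ptc6, and 3.73 and 3.18 in wild type cells. Both sets of arrays stood clear of each other, with the spread within a mutant far below the difference. Whether the rapamycin-treated level was lower or the mock-treated level higher in ptc1 ptc6 cannot be told apart from these ratios. Among 36 targets of the stress factors Msn2 and Msn4, 13 lay below and 6 above (median −0.12), and the 22 of them induced in wild type had a median of −0.24. Of 11 Hog1 targets, 5 lay below (45.5%) and 1 above (9.09%), against 25.7% and 11.5% of all ORFs (median −0.29). Several of the 11, among them HSP12, NQM1 and GCY1, were already counted among the Msn2 and Msn4 targets. The 6 Hog1 targets induced in wild type were all lower on average, 5 of them without overlap. GCY1, a glycerol dehydrogenase of that list, had 2.65 and 2.52 in ptc1 ptc6, 3.10 and 3.64 in ptc6, and 3.30 and 2.96 in wild type cells. GLC3, the glycogen branching enzyme, differed by −0.50, and ECM4 and NQM1 by −0.52 and −0.51. Of the 25 genes of the heat shock and chaperone list, 4 lay below (16%) and 9 above (36%), against 25.7% and 11.5% of all ORFs. The larger share was thus above ptc6, with members on both sides (median 0.07, and −0.08 with rapamycin RNA in Cy5 only). HSP82 had 0.54 and 0.68 in ptc1 ptc6 against 0.26 and −0.13 in ptc6, named after its values were seen, and HSP30 had 0.67 and 0.29 in ptc1 ptc6, −0.38 and −0.07 in ptc6, and −1.61 and −1.67 in wild type cells.

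GPG1 and SED1 also had lower ratios, which again could lie in the mock-treated or the rapamycin-treated level. GPG1, a proposed gamma subunit that acts with the G protein Gpa2, had 2.76 and 2.82 in ptc1 ptc6, 4.36 and 4.39 in ptc6, and 4.86 and 4.27 in wild type cells, a 3.0-fold difference between the mutants. SED1, a major cell wall glycoprotein, had 1.06 and 0.19 in ptc1 ptc6, 1.40 and 1.88 in ptc6, and 1.67 and 2.05 in wild type cells. The cell wall integrity targets of Slt2 and Rlm1 did not share a direction, with 4 of 20 below and 3 above (median −0.06, and 0.01 with each array centred). FMP33, a mitochondrial protein gene, had 1.90 and 2.03 in ptc1 ptc6 against 3.34 and 3.43 in ptc6.

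Some iron uptake genes differed in sign between the strains. Of 14 genes of the iron regulon, 9 lay below ptc6 without overlap (64.3%) and 0 above, against 25.7% and 11.5% of all ORFs. The median was −0.46, although only 3 were induced 2-fold in wild type cells and those 3 had a median difference of 0.02. FIT1, a cell wall mannoprotein that retains siderophores, had 0.19 and 0.17 in ptc1 ptc6, 1.28 and 1.34 in ptc6, and 1.60 and 1.65 in wild type cells. The siderophore transporter gene ARN2 had −0.47 and −0.33 in ptc1 ptc6, 0.51 and 0.61 in ptc6, and 0.99 and 0.82 in wild type cells. The transporter gene SIT1 had −0.55 and −0.73 in ptc1 ptc6, 0.08 and 0.43 in ptc6, and 0.04 and 0.31 in wild type cells. In ptc1 ptc6 the ratios of these genes were thus near or below 0, whereas ptc6 and wild type lay above 0; a ratio near 0 gives equal levels with and without the drug and not whether those levels were low or high. Of 14 ergosterol genes, 10 lay below and 0 above (median −0.24), led by IDI1 and ERG24.

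A few repressed genes had higher ratios in ptc1 ptc6. MPC3, a subunit of the mitochondrial pyruvate carrier, had −0.06 and −0.21 in ptc1 ptc6, −2.0 and −2.05 in ptc6, and −2.22 and −1.81 in wild type cells, so that its repression was present in ptc6 and near 0 in ptc1 ptc6. HAP4, the activator of respiratory genes, had 0.04 and 0.17 in ptc1 ptc6, −0.87 and −0.63 in ptc6, and −1.70 and −1.53 in wild type cells. HXT1, a low-affinity hexose transporter, had −0.68 and −0.27 in ptc1 ptc6, −0.97 and −1.43 in ptc6, and −1.41 and −1.5 in wild type cells. Of these, MPC3 passed the 2-fold limit, as did UPA1 with −0.69 and −0.41 in ptc1 ptc6, −1.79 and −1.93 in ptc6, and −1.12 and −1.24 in wild type cells, where ptc6 was the most repressed strain. Respiratory genes as a group showed 5 of 34 below and 7 above (median 0.03), with FUM1 (0.51) and CYT1 (0.44) among those above.

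Some genes had a higher ratio in ptc1 ptc6 than in both other strains. MLS1, the malate synthase of the glyoxylate cycle, had 2.16 and 1.77 in ptc1 ptc6, −0.05 and 0.00 in ptc6, and 0.43 and 0.40 in wild type cells, and its difference of 1.99 was the largest positive one of all. The rest of the list of fatty acid oxidation, glyoxylate and gluconeogenesis genes did not follow it, with 1 of 12 below and 3 above (median 0.02). ZRT1, the high-affinity zinc transporter, had 1.04 and 0.96 in ptc1 ptc6, −0.35 and 0.11 in ptc6, and −0.29 and 0.31 in wild type cells. YKE4, another zinc transporter gene, had 2.10 and 1.28 in ptc1 ptc6, 0.68 and 0.44 in ptc6, and 1.11 and 0.82 in wild type cells. Of 8 genes of the zinc regulon, 3 lay above and 1 below (median 0.18, but −0.04 without ptc6 array 1). The multidrug transporter gene SGE1, FMT1, AAD10 and YHR022C completed the 10 higher ORFs. Differences of the opposite sign outside the induced and repressed classes were seen for TOS6 (−0.71 and −1.34 in ptc1 ptc6, −0.09 and 0.26 in ptc6, and 0.33 and 0.34 in wild type cells) and, among repressed genes, for the permease genes BAP3 (difference −1.02) and PHO89 (−1.01), which transport branched-chain amino acids and phosphate.

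Other lists had medians nearer to that of all ORFs. Mitochondrial ribosomal proteins had 7 of 47 below and 11 above (median 0.03), in contrast with the cytosolic ones. The lists also differ in depth of repression. Of 39 mitochondrial genes with wild type values, 5 were repressed 2-fold in wild type cells, against 99 of 100 cytosolic ones. Core autophagy genes had a median difference of 0.01 over 16 genes, vacuolar proteases one of −0.02 over 10, which was 0.04 when each array was centred on its median, and genes of the TOR and PP2A-like phosphatase branch one of −0.06 over 25 (0.00 with the same centring). Proteasome genes had 8 of 29 below (27.6%) and 0 above (median −0.15), and phosphate genes 5 of 19 below (26.3%) and 0 above (median −0.13). Both shares below were near the 25.7% of all ORFs, of which 11.5% lay above. Glycolytic genes had 0 of 19 below and 3 above (median 0.12). Within 2-fold in wild type cells, 20.3% of 1843 ORFs lay below ptc6 and 11.6% above.

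The threshold decided how many genes were counted, and the direction less so. At 1.5-fold, 173 ORFs were lower and 47 higher without overlap. Of the 495 repressed ORFs 117 were lower and 6 higher at that limit, and of the 396 induced ones 19 were lower and 8 higher. When both same-dye differences had to pass 2-fold on their own, 12 ORFs were lower and 5 higher.

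Some of the 41 calls rested on 1 array. With any single ptc1 ptc6 or ptc6 array left out, 14 of the 31 lower ORFs and 3 of the 10 higher ones kept a 2-fold difference. The 14 were GAP1, AGP1, DIP5, GPG1, FMP33, HSP12, FIT1, BRX1, URA1, RPA34, RPL19B, RNR1, DPH2 and NMD3, and the 3 were MLS1, MPC3 and UPA1. Without ptc1 ptc6 array 1 the difference was −0.96 for MAK5, −0.34 for POL5, −0.67 for NIP7, −0.70 for URB1 and −0.46 for UTP20 among the lower ORFs, and 0.99 for FMT1, 0.87 for YHR022C, 0.72 for YKE4, 0.91 for DAL2 and 0.85 for SGE1 among the higher ones. Without ptc1 ptc6 array 2 it was −0.81 for NSR1, −0.79 for TOS6, −0.52 for IPI3, −0.80 for RPL21A, −0.59 for RPS27B, −0.58 for SED1, −0.77 for PHO89 and −0.93 for BAP3, and 0.92 for AAD10. Without ptc6 array 1 it was −0.75 for DUR3, −0.72 for DUR12 and 0.89 for ZRT1, and without ptc6 array 2 it was −0.91 for RPL5 and −0.81 for NUG1. All of these kept the direction of the mean, as they must where the arrays of the strains do not overlap.

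**Figure D5:**
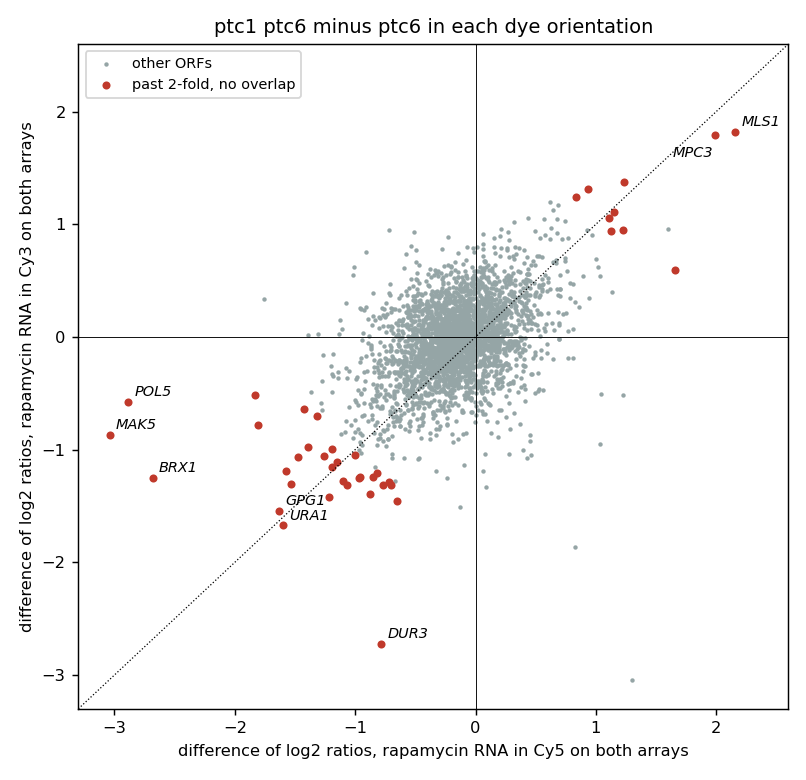
Difference of log2 ratios, ptc1 ptc6 minus ptc6, from the arrays with rapamycin RNA in Cy3 (y axis) against those with it in Cy5 (x axis), 1 point per ORF. The dotted line marks equal differences and red points are the 41 ORFs past 2-fold without overlap, which by that rule have the same sign on both axes. MAK5, POL5 and BRX1 lie far out on the Cy5 axis and DUR3 on the Cy3 axis.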

How the data were processed

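The authors hybridised Cy3- and Cy5-labelled cDNA from 8 µg of total RNA per channel to yeast ORF microarrays, left out spots under 120 µm or under 150 units of fluorescence, and deposited 1 table of log2 ratios of rapamycin over mock per array. Per the labels and the study's methods, arrays were scanned with a ScanArray instrument, read with GenePix Pro and preprocessed with GEPAS; how each array was normalised is not given in the sources used here. The deposited log2 values were used unchanged: 3841 and 3805 values on the ptc1 ptc6 arrays, 3545 and 3369 on the ptc6 arrays, and 3454 and 3097 on the wild type arrays. A table of ratios gives no intensity, so signal over background is unknown.

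ORFs were named through RefSeq assembly R64 (5639 of 6212 matched). Means, differences, counts, medians and least-squares slopes were computed in Python 3.11.15 with numpy 2.4.6, pandas 2.3.3 and scipy 1.17.1, and drawn with matplotlib 3.10.9; the scripts were tested on simulated data. Since both arrays of each strain were made from 1 pair of RNA samples, they count as 1 replicate, no p-value was computed, and error is given as the values of both arrays. An ORF was called when the strains differed by 2-fold or more and the arrays of one strain lay wholly above or below those of the other. ORFs induced or repressed in wild type cells had a mean wild type log2 ratio of at least 1 or at most −1. Members, 32 gene lists (13 symbols unmatched) and tests were chosen with earlier results of these data known. Genes named were, among ORFs without overlap, the 10 lowest and 5 highest differences of the induced and of the repressed class, the 5 lowest and 5 highest of the rest, the 3 largest of each list, the genes the study assayed singly, the PTC genes and any other ORF called. Alternatives tried were other fold limits, 1 dye orientation, centring, linear averaging, chromosomes XII and XIII included, fewer values required, other wild type selections and other regressions.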

Additional observations from a re-analysis of the deposited data

Results flagged for a closer look

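At some of the genes named, every ptc1 ptc6 array had the opposite sign to every ptc6 array; these differences between the strains were not tested, since each strain is 1 biological replicate. Over all 3078 ORFs this held for 49 with negative ratios in ptc1 ptc6 and positive ones in ptc6, and for 28 the other way round. With negative ratios in ptc1 ptc6 and positive ones in ptc6, the difference was −0.998 for PRY1, −0.961 for ARN2, −0.896 for SIT1, −0.585 for HHO1, −0.546 for IDI1, −0.517 for MRP21, −0.492 for ILV1, −0.464 for ERG24, −0.347 for CLN2 and −0.328 for RPN3. PRY1, which encodes a sterol-binding secreted protein, had ratios of −0.19 and −0.97 in ptc1 ptc6, 0.19 and 0.65 in ptc6, and 0.45 and 0.80 in wild type cells. ARN2 and SIT1 serve siderophore uptake, HHO1 encodes the linker histone, and IDI1 and ERG24 belong to sterol synthesis. With positive ratios in ptc1 ptc6 and negative ones in ptc6, the difference was 0.707 for HSP30, 0.708 for HXT6, 0.859 for HAP4, 0.935 for CTP1 and 1.08 for FMT1. HXT6, a high-affinity hexose transporter gene with a near-identical copy, had 0.52 and 0.67 in ptc1 ptc6, −0.21 and −0.01 in ptc6, and −0.09 and 0.20 in wild type cells. CTP1, the mitochondrial citrate carrier gene, had 0.84 and 0.13 in ptc1 ptc6 and −0.77 and −0.13 in ptc6. Several of these ratios lie close to 0, within the gap between the 2 arrays of a strain.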

How the results depend on the processing

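Counts changed with the processing. The 31 lower and 10 higher ORFs became 173 and 47 at 1.5-fold, 6 and 2 at 3-fold, 58 and 19 with rapamycin RNA in Cy5 only, 55 and 16 with it in Cy3 only, and 124 and 96 with chromosomes XII and XIII included. With a value needed on only 1 array of each strain, 51 ORFs were lower, and with both same-dye differences past 2-fold, an alternative chosen after seeing the data, 12 were lower and 5 higher. Leaving out 1 array gave 47 to 60 lower and 13 to 20 higher ORFs, of which 23 to 27 of the 31 and 5 to 10 of the 10 were shared; with 1 array a strain, overlap excludes fewer ORFs. The median over repressed ORFs was −0.25 when selected at 1.5-fold and −0.46 at 3-fold in wild type, and −0.42 to −0.29 with 1 array left out; the median over induced ORFs was −0.062 to 0.079 with 1 array left out. The slope over induced ORFs was 0.793 with 1 array enough, 0.757 with chromosomes XII and XIII, 0.787 in Cy3 only, 0.879 and 0.789 with selection at 1.5- and 3-fold, 0.951 through the origin, 0.905 by orthogonal regression and 0.769 to 0.848 with 1 array left out; the slope over repressed ORFs was 1.24 by orthogonal regression and 1.11 to 1.22 with 1 array left out. The 38 induced ORFs stepping down became 61 with chromosomes XII and XIII, 169 in Cy5 only, 165 in Cy3 only and 51 to 79 with 1 array left out, and the 246 returning ones 420 in Cy5 only and 425 in Cy3 only. Among gene lists, RNA polymerase I and III had a median of −0.32 with 1 array enough, −0.32 centred, −0.33 in Cy5 only, −0.25 in Cy3 only and −0.47 over members past 2-fold in wild type. Centred arrays gave −0.22 for pyrimidine and purine synthesis, −0.20 for trehalose and glycogen and 0.043 for vacuolar proteases, and chromosomes XII and XIII gave −0.33 for pyrimidine and purine synthesis. Cy5 only gave −0.46 for ribosome assembly, −0.38 for tRNA synthetases, −0.33 for the proteasome, −0.17 for the retrograde pathway, −0.10 for autophagy, −0.15 for hexose transporters, −0.082 for heat shock proteins and −0.038 for pheromone response. Cy3 only gave −0.13 for trehalose and glycogen, −0.12 for translation factors, 0.068 for tRNA synthetases, 0.10 for the retrograde pathway, 0.12 for autophagy, 0.25 for hexose transporters and 0.24 for heat shock proteins. Members past 2-fold in wild type gave 0.022 for the iron regulon, −0.41 for pyrimidine and purine synthesis, −0.17 for trehalose and glycogen, −0.24 for Msn2 and Msn4 targets, −0.26 for hexose transporters and −0.39 for heat shock proteins. With 1 array left out, the medians ranged over −0.38 to −0.33 for RNA polymerases, −0.33 to −0.0028 for cyclins, −0.18 to 0.24 for fatty acid and glyoxylate genes, 0.040 to 0.21 for heat shock proteins, −0.19 to −0.0010 for NCR genes, −0.16 to 0.11 for the phosphatase family, −0.13 to 0.056 for the retrograde pathway, −0.46 to −0.29 for ribosome assembly, −0.29 to −0.14 for trehalose and glycogen, −0.046 to 0.19 for respiration and −0.061 to 0.064 for vacuolar proteases. The cause of these shifts was not tested. Of 738 values of the 123 named genes under the alternatives computed for single genes, 729 kept their direction. The other 9 belonged to 6 genes whose arrays overlapped. Most named genes were chosen for arrays without overlap, and leaving out 1 array cannot change the direction of such a gene. The count is therefore no measure of how stable the directions are. No paired analysis was possible because each strain is 1 biological replicate whose arrays 1 and 2 are a dye swap of the same RNA, so the shared array numbers pair nothing and no test was made. With 1 culture a strain, differences between strains cannot be told apart from differences between cultures, and the table gives no signal over background.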

Other observations

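A few single genes outside the lists were picked after their values were seen, with no count over other genes of their kind. POL32, a subunit of DNA polymerase delta, had ratios of −1.41 and −1.28 in ptc1 ptc6, −0.43 and −0.41 in ptc6, and −0.82 and −0.82 in wild type cells. RAD27, the flap endonuclease of lagging strand synthesis, had −1.09 and −0.92 in ptc1 ptc6, −0.31 and −0.32 in ptc6, and −0.63 and −0.67 in wild type cells. SWE1, the kinase that inhibits Cdc28 at mitotic entry, had −0.85 and −0.51 in ptc1 ptc6 and −0.02 and 0.52 in ptc6. For each of these the ptc1 ptc6 arrays lay below both ptc6 arrays. The permease gene MUP1, for methionine, had −1.78 and −1.59 in ptc1 ptc6, −0.85 and −0.70 in ptc6, and −2.52 and −1.93 in wild type cells. DFR1, the dihydrofolate reductase gene, had −1.21 and −1.92 in ptc1 ptc6, −0.64 and −0.54 in ptc6, and −1.04 and −1.12 in wild type cells.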
